A study of Mus musculus with 3 samples.

Results

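Sox7, Sox17 and Sox18 make up the SoxF group of Sry-related transcription factors, and they were taken as the 3 member genes with every probe set that the array's annotation gives to 1 of them alone. They were 3 of 18193 genes and held 5 of the 34945 probe sets with a single gene symbol. SoxF proteins bind DNA through an HMG box, which recognises a short AT-rich core and bends the helix, and they can also bind beta-catenin and so dampen Wnt responses. In the embryo the 3 genes act partly in place of each other in forming endothelium, arteries and lymphatic vessels. Sox17 is also required for definitive endoderm, and Sox7 and Sox17 are both active in primitive endoderm, so a SoxF transcript alone does not tell vessel from endoderm.

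The RNA came from A2.snail cells, a mouse embryonic stem cell line that makes Snail when doxycycline is added; Snail, encoded by Snai1, represses epithelial genes. All cells had differentiated to day 3 as embryoid bodies, which are floating aggregates, in medium with 10% FCS and the Wnt inhibitor DKK1. There was 1 Affymetrix array for each of 3 groups. Snail-induced Flk1+ and Snail-induced Flk1- cells were sorted from a culture that received doxycycline at 250 ng/mL from day 2, and untreated Flk1- cells came from a culture with 0 ng/mL. Flk1, encoded by Kdr, is a VEGF receptor of mesoderm that can form endothelium and blood. Untreated Flk1+ cells, and cells treated with doxycycline but without the Snail gene, were not analysed here, so Snail and doxycycline cannot be told apart, and neither can the Flk1 gate and Snail in the Flk1+ cells. The labels do not say whether the cells were a single clone or how many cultures were pooled.

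With 1 array per group there are no replicates to check a difference against and no test could be run, so the text prints no p-value, and precision is limited by the number of arrays. Values are intensities on a linear scale, and 25.6, the 40th percentile of all values, is used as a floor: 13974 genes reached it on at least 1 array and are called measured. Differences are of log2(value + 9.53), and a fold is 2 to the power of that difference. Where the lower value lay under the floor, the higher value is divided by the floor and the fold is written with "at least"; where both values lay under it, the text gives none. A gene is counted as higher or lower when the difference of log2(value + 9.53) reached 2-fold, also where the lower value lay under the floor; the bound that the floor allows can then be under 2-fold. Where a gene had several probe sets, the one with the highest mean stands for it. The median intensity was 44.6 on the Snail-induced Flk1+ array, 42.4 on the Snail-induced Flk1- array and 42.7 on the untreated array. Kdr, the gene of the sorted protein, gave 404 in Snail-induced Flk1+ cells, against 9.73 in Snail-induced Flk1- and 10.5 in untreated Flk1- cells. Snai1 gave 19.8, 13.1 and 29.1 in the same order, near or under the floor, so this probe set checks nothing about the induction. The stem cell gene Pou5f1 gave 3607, 5963 and 5224 in that order, above the floor on every array. Nanog, another stem cell gene, gave 203, 1584 and 1767 and so was 7.51-fold lower in Flk1+ than in Flk1- cells of the induced culture.

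All 3 SoxF genes were higher in Snail-induced Flk1+ cells than in Snail-induced Flk1- cells, by 12.4-fold for Sox7, 14.0-fold for Sox17 and 27.5-fold for Sox18. In this comparison the share of measured genes counted as higher was 4.94%, and the share counted as lower was also 4.94%. Among the Flk1- cells the 3 genes parted: Sox7 stood at the same level with and without Snail induction, Sox17 differed little and its probe sets disagreed on the sign, and Sox18 was higher with induction but close to the floor. In a bulk sample fewer cells of a type and less RNA per cell cannot be told apart, and this holds for each difference below.

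Sox7, which in mouse and fish is needed for early vessel formation and in mouse marks the first blood and endothelial precursors, had 2 probe sets. The brighter gave 1291 in Snail-induced Flk1+ cells, 95.1 in Snail-induced Flk1- cells and 95.5 in untreated Flk1- cells. The Flk1+ array thus stood alone, and the Flk1- arrays differed by less than 1 intensity unit. The log2 difference was 3.64 between Flk1+ and Flk1- cells of the induced culture, which ranked 17 from the top among the 12245 genes at or above the floor on both arrays, and -0.01 between induced and untreated Flk1- cells. The second probe set, built on the clone sequence AK009704, gave 23.8, 7.05 and 13.9 in the same order. All of these lie under the floor, so it bears on no fold, although its highest value was again that of Flk1+ cells.

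Sox17, the SoxF gene with the best known role in endoderm and later in arteries and blood-forming endothelium, also had 2 probe sets. The brighter gave 1466 in Snail-induced Flk1+ cells, 96.2 in Snail-induced Flk1- cells and 68.3 in untreated Flk1- cells. Its name ends in _x_at, by which Affymetrix marks probe sets with probes that can also read other transcripts. The other, whose name ends in _a_at for several transcripts of 1 gene, gave 209 in Snail-induced Flk1+ cells, 16.9 in Snail-induced Flk1- cells and 26.2 in untreated Flk1- cells. Both probe sets were highest in Flk1+ cells, with log2 differences of 3.80 and 3.05 against Flk1- cells of the same culture, and the second was at least 8.17-fold higher there. Between induced and untreated Flk1- cells they went opposite ways, by 0.44 for the brighter and -0.43 for the other on the log2 scale. Neither reached 2-fold, so the arrays give no settled direction for Sox17 with Snail induction in Flk1- cells.

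Sox18, whose mutation in the mouse strain ragged and in people disturbs hair, blood vessels and lymphatics, had 1 probe set. It gave 1082 in Snail-induced Flk1+ cells, 30.2 in Snail-induced Flk1- cells and 3.33 in untreated Flk1- cells. The Flk1+ array was far above the others, the induced Flk1- array was just above the floor, and the untreated one was far under it. The log2 difference between Flk1+ and Flk1- cells of the induced culture was 4.78, which ranked 2 from the top of the same 12245 genes. Genes under the floor in induced Flk1- cells were not ranked, among them Gata2 (5.62) and Hapln1 (5.12) by their brightest probe sets. Between induced and untreated Flk1- cells the log2 difference of Sox18 was 1.63, and the fold that the floor allows was at least 1.18. In that comparison 3.00% of measured genes were counted as higher and 2.06% as lower, 419 and 288 genes, which became 317 and 404 with each array centred on its median. Sox18 was the only SoxF gene counted. With an offset of 25.6 in place of 9.53 its difference was 0.95 and no longer reached 2-fold.

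Against untreated Flk1- cells, Snail-induced Flk1+ cells had 12.4-fold more Sox7 signal, 19.0-fold more Sox17 signal and at least 42.3-fold more Sox18 signal. This comparison joins the induction with the gate and shares its arrays with the other comparisons. In it 8.24% of measured genes were counted as higher and 6.47% as lower. Among the 12310 genes at or above the floor on both arrays Sox17 ranked 10 and Sox7 ranked 27 from the top, and Sox18, under the floor in untreated cells, has no rank. The second Sox17 probe set was 6.11-fold higher, so the size for Sox17 differed between its probe sets by over 1.5 times while the direction did not.

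**Figure D1:**
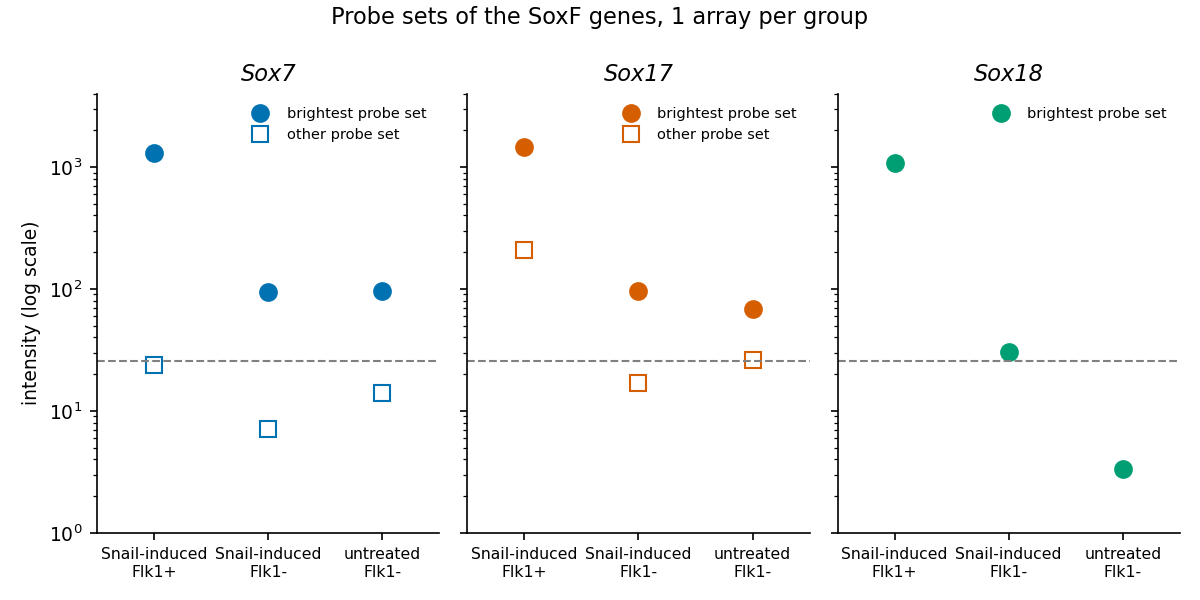
Intensity (log scale) of each SoxF probe set on the 3 arrays, Snail-induced Flk1+, Snail-induced Flk1- and untreated Flk1- from left to right; filled circles are the brightest probe set of a gene, open squares its other one, and the dashed line is the floor of 25.6. The brightest probe sets lie between 1082 and 1466 in Flk1+ cells and at 96.2 or below on both Flk1- arrays; there is 1 array per group and no error bar.

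The rest of the Sox family was read beside them. Of 16 other Sox genes with a probe set, 12 were measured. By brightest probe sets, 0 reached 2-fold in the higher and 3 in the lower direction when Snail-induced Flk1+ cells were set against Snail-induced Flk1- cells. For 3 genes, Sox3, Sox4 and Sox6, another probe set gave a different call. The median log2 difference of the 12 was -0.10, beside 0.00 over all measured genes. The 3 lower ones were the SoxB1 genes, which act in pluripotent and neural cells. Sox2, a core pluripotency factor, gave 1683 in Snail-induced Flk1+ cells, 5709 in Snail-induced Flk1- cells and 5023 in untreated Flk1- cells, so it was 3.38-fold lower with the gate and close to equal on the Flk1- arrays. Sox1, an early neural gene, gave 135 in Snail-induced Flk1+ cells, 403 in Snail-induced Flk1- cells and 610 in untreated Flk1- cells. Sox3, its close relative, gave 145, 421 and 597 in the same order. Sox1 and Sox3 were thus 2.85-fold and 2.79-fold lower in Flk1+ than in Flk1- cells of the induced culture, and lowest in Flk1+ cells of all 3 groups. A second Sox3 probe set gave 41.1, 67.6 and 68.2 in the same order, a log2 difference of -0.61 that did not reach 2-fold.

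The SoxC genes Sox4, Sox11 and Sox12, which are active in many progenitor cells, differed less by their brightest probe sets. Sox4 gave 9247 in Snail-induced Flk1+, 6057 in Snail-induced Flk1- and 5405 in untreated Flk1- cells. Sox11 gave 1923, 1133 and 702 in the same order and was 2.71-fold higher in Flk1+ than in untreated Flk1- cells, although 4 of its 6 probe sets stayed under 2-fold there. Sox12 lay between 1385 and 1624 on the 3 arrays. Sox4 and Sox11 were thus highest in Flk1+ cells, at 1.53-fold and 1.69-fold over Flk1- cells of the induced culture, while Sox12 was flat. The other Sox4 probe sets above the floor on every array gave log2 differences of 1.28, 1.26, 1.14, 0.995 and 0.64 over induced Flk1- cells, the last ones under 2-fold. Against untreated Flk1- cells these gave 1.87, 1.93, 1.73, 1.19 and 1.43 in the same order, so the call for Sox4 depends on the probe set.

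Of the SoxD and SoxE genes, Sox9, a regulator of cartilage and neural crest, was the only one of the 12 measured genes counted between induced and untreated Flk1- cells. It gave 28.0 in Snail-induced Flk1+, 53.3 in Snail-induced Flk1- and 8.02 in untreated Flk1- cells, at least 2.09-fold higher with induction in Flk1- cells. Unlike the SoxF genes it was lower in Flk1+ than in Flk1- cells of the induced culture, by 1.68-fold. Its other 2 probe sets stayed under the floor on every array, and with the mean of its probe sets it was no longer counted. With the floor at the 60th percentile of all values, 80.5, which is above its highest value, it was not measured. Sox6, which acts in muscle, cartilage and red cell precursors, gave 69.6 in Snail-induced Flk1+, 33.8 in Snail-induced Flk1- and 35.2 in untreated Flk1- cells. Sox13 (101 to 144), Sox10 (76.6 to 92.7), Sox21 (42.5 to 44.9) and Sox5 (14.8 to 26.2) moved over narrow ranges. Sox8, Sox14, Sox15 and Sox30 were under the floor on all 3 arrays. Against untreated Flk1- cells, Flk1+ cells had 2 of the 12 counted as higher, Sox9 (at least 1.09-fold) and Sox11, and 3 as lower, Sox1, Sox2 and Sox3; with the mean of probe sets the 2 higher ones were Sox4 and Sox6 instead.

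**Figure D2:**
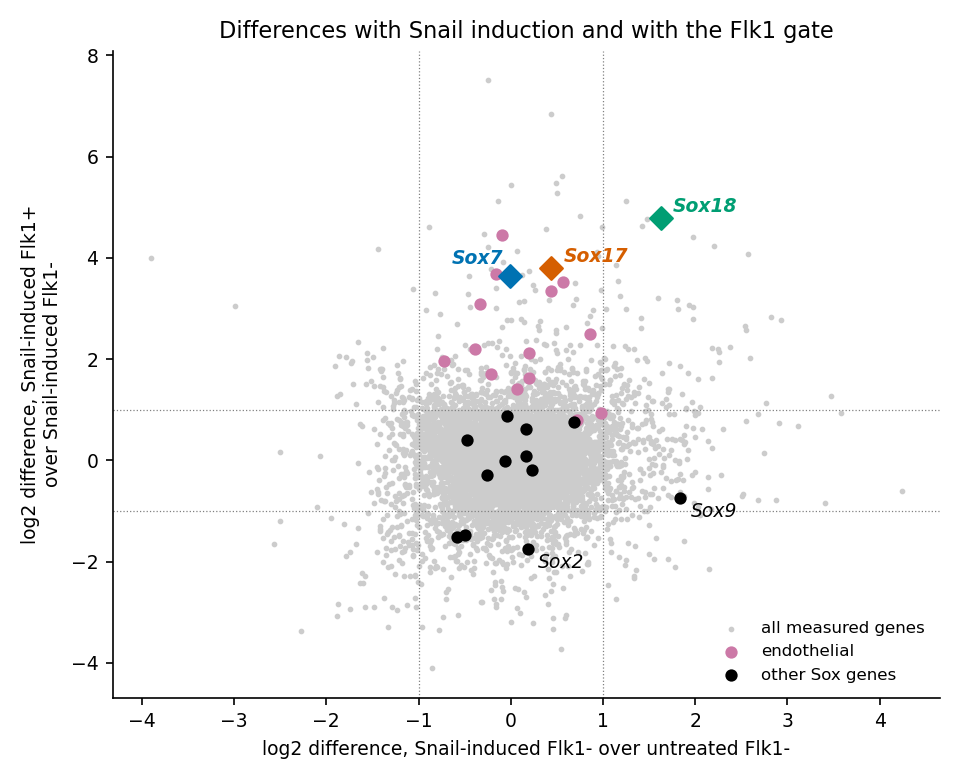
Log2 difference of each measured gene between Snail-induced and untreated Flk1- cells (x) and between Snail-induced Flk1+ and Flk1- cells (y); grey points are all 13974 measured genes, pink points the endothelial list, black points the other measured Sox genes, diamonds the SoxF genes, and dotted lines mark 2-fold. The SoxF genes lie at 3.64 to 4.78 on the y axis and spread from -0.01 to 1.63 on the x axis, while Sox2 lies at -1.76 on the y axis.

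Because SoxF genes are shared by endothelium and endoderm, the markers of both were read beside them. Of 14 endothelial genes, all measured, 12 were counted as higher and 0 lower in Snail-induced Flk1+ than in Snail-induced Flk1- cells, with a median log2 difference of 2.16. Their intensities summed to 7478 in Snail-induced Flk1+, 1494 in Snail-induced Flk1- and 1489 in untreated Flk1- cells. Egfl7 alone, by a probe set ending in _x_at, gave 2833, 866 and 1007 in the same order, so most of both Flk1- sums came from it. Of the 14, 7 reached the floor only on the Flk1+ array and so could differ in this direction alone. For 2 of the 12, Pecam1 and Tie1, the floor allows only at least 1.75-fold and 1.67-fold. Flt1, a VEGF receptor gene, gave 556 in Snail-induced Flk1+ cells, 16.4 in Snail-induced Flk1- cells and 18.2 in untreated Flk1- cells, at least 21.7-fold higher with the gate. Esam, an adhesion molecule of endothelial junctions, was 12.9-fold higher, and Tek, the angiopoietin receptor gene, 10.2-fold higher. Icam2, another endothelial adhesion molecule, and Cdh5, which encodes VE-cadherin, were at least 8.42-fold and 7.30-fold higher. Another Cdh5 probe set gave 23.4 in Snail-induced Flk1+, 18.1 in Snail-induced Flk1- and 29.0 in untreated Flk1- cells, near or under the floor. Plvap, a protein of endothelial diaphragms, was at least 5.92-fold higher. The 2 that did not reach 2-fold were Cldn5, a tight junction gene of endothelium, at 1.73-fold, and Robo4, a guidance receptor gene of vessels, at 30.4 in Flk1+ and 11.2 in Flk1- cells. Between induced and untreated Flk1- cells 0 of the 14 were counted by their brightest probe set. A second Eng probe set gave 70.7 in induced and 24.9 in untreated Flk1- cells, a log2 difference of 1.22 with the untreated value just under the floor.

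Endoderm markers went both ways. Of 14 definitive endoderm genes, 12 were measured, and 4 were counted as higher and 3 lower in Snail-induced Flk1+ than in Snail-induced Flk1- cells, with a median log2 difference of 0.36. Of the 12, Lhx1 and Cxcr4 reached the floor only on the Flk1+ array and so could only be counted as higher there. The list's intensities summed to 3693 in Snail-induced Flk1+, 4212 in Snail-induced Flk1- and 6695 in untreated Flk1- cells. Most of the untreated sum came from Epcam (2664), Otx2 (2285) and Cldn6 (1151), and in Flk1+ cells Hhex alone gave 1888. Foxa2, a defining regulator of endoderm, gave 16.2 in Snail-induced Flk1+, 10.9 in Snail-induced Flk1- and 20.1 in untreated Flk1- cells, and Cer1, a secreted antagonist made by anterior endoderm, lay between 7.67 and 10.4. Both stayed under the floor on all 3 arrays. The 4 higher genes were Lhx1 at least 5.04-fold, Hhex at 10.6-fold, Gata6 at 3.59-fold and Cxcr4, for which the floor allows only at least 1.15-fold (29.4 in Flk1+ and 9.50 in induced Flk1- cells). Another Lhx1 probe set gave 33.9 in Flk1+ and 9.25 in induced Flk1- cells, so the size for Lhx1 rests on its brightest probe set. Gata4 did not reach 2-fold by its brightest probe set, but another gave 49.7 against 13.6 (log2 difference 1.36). Hhex is also active in endothelial precursors, Gata6 and Lhx1 in mesoderm, and Cxcr4 in migrating mesoderm and vessels. The 3 lower genes were Cldn6, at least 8.98-fold, Epcam at 4.84-fold and Otx2 at 2.52-fold, genes that the epithelial epiblast also expresses.

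Of 24 genes of primitive and visceral endoderm with a probe set, 20 were measured. Among these 5 were counted as higher and 2 lower in Snail-induced Flk1+ than in Snail-induced Flk1- cells, with a median log2 difference of 0.13. The secreted products Afp, Ttr and Apoa1 stayed under the floor on all 3 arrays together with Foxa2. The basement membrane collagens Col4a2 and Col4a1 were 5.17-fold and 5.02-fold higher, the matrix protein gene Sparc 2.22-fold higher by its brightest probe set but at 58.4 against 70.1 by another, and Thbd, which encodes thrombomodulin, at least 1.57-fold higher, a bound under 2-fold. These 4 genes are also active in endothelium, and the fifth was Gata6. Thbd reached the floor only on the Flk1+ array. The uptake receptor gene Cubn was 4.99-fold lower and the homeobox gene Rhox5 3.69-fold lower. Lrp2 and Gata4 did not reach 2-fold by their brightest probe sets (log2 differences -0.77 and 0.60). Another probe set of each did, Lrp2 at 53.2 against 219 (-1.87) and Gata4 at 49.7 against 13.6 (1.36). The list's intensities summed to 20679 in Snail-induced Flk1+, 11301 in Snail-induced Flk1- and 10908 in untreated Flk1- cells, with Col4a1 alone at 7178, 1423 and 1023. What part either endoderm list has in the SoxF differences was not tested.

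Between induced and untreated Flk1- cells, 1 definitive endoderm gene was counted as higher and 3 lower. Gsc, a gene of the anterior primitive streak, was at least 3.60-fold higher. Cldn6 was 4.85-fold, Foxa1 at least 1.82-fold (a bound under 2-fold) and Epcam 2.06-fold lower, the last by its brightest probe set alone (another gave 23.6 against 40.1). Of the primitive and visceral endoderm genes, 3 were higher and 2 lower there. Pdgfra, a growth factor receptor gene of primitive endoderm and mesoderm, was 5.72-fold higher, the endocytic adaptor gene Dab2 2.32-fold (2 other probe sets, with log2 differences of 0.47 and 0.81, did not reach 2-fold) and the retinol carrier gene Rbp4 2.30-fold higher. Foxa1 was again one of the lower genes, and the other was the uptake receptor gene Lrp2 at 2.32-fold. Against untreated Flk1- cells, Flk1+ cells had 5 of the 12 measured definitive endoderm genes counted as higher and 4 lower. Of the 20 measured primitive and visceral endoderm genes, 9 were higher and 5 lower. The shares over all measured genes were 8.24% and 6.47%. Bounds were under 2-fold for Apob, Thbd and Foxa1, and another probe set gave another call for 3 definitive and 4 primitive and visceral endoderm genes.

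Regulators of endothelium, a list that shares Hhex with the definitive endoderm list, were read next, and most of those listed were higher in Flk1+ cells. Of 13 such regulators, all measured, 10 were counted as higher and 0 lower in Snail-induced Flk1+ than in Snail-induced Flk1- cells, with a median log2 difference of 2.77. Of the 13, 2 reached the floor only on the Flk1+ array, and for 2, Gata2 and Nr2f2, another probe set gave a different call. Gata2, a zinc finger factor of blood and endothelial progenitors, gave 1011 in Snail-induced Flk1+ cells, 11.3 in Snail-induced Flk1- cells and 4.67 in untreated Flk1- cells. That is at least 39.5-fold higher in Flk1+ cells, but its second probe set gave 323, 181 and 242 in the same order, a log2 difference of 0.81 that did not reach 2-fold, so the size for Gata2 is not settled. Lmo2, a bridging protein of blood and vessel complexes, was 22.3-fold higher, and the ETS factor genes Fli1 and Erg were 16.8-fold and at least 12.4-fold higher. Tal1, needed for the blood lineage, was 12.6-fold higher. Etv2, the ETS factor at the start of the endothelial programme, gave 2467 in Snail-induced Flk1+, 711 in Snail-induced Flk1- and 356 in untreated Flk1- cells, so it was above the floor on every array. The 3 that did not reach 2-fold by their brightest probe set were Nr2f2 (1.46-fold), which directs vein identity, Prox1 (1.12-fold), which directs lymphatic identity and is a known Sox18 target, and Rbpj, the DNA-binding partner of Notch, which stood at 2018, 2043 and 2043. For Nr2f2, 2 other probe sets gave 115 and 74.6 in Flk1+, against 7.25 and 8.88 in induced Flk1- cells, with log2 differences of 2.89 and 2.19, so its call depends on the probe set. With the mean of probe sets 11 of the regulators were counted as higher.

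With Snail induction in Flk1- cells, 3 of the 13 regulators were counted as higher and 0 lower. Another Prox1 probe set gave 16.5 in induced and 43.4 in untreated Flk1- cells, a log2 difference of -1.02. Ets1, another ETS factor gene, was 6.04-fold higher, Fli1 at least 5.76-fold and Mef2c, a muscle and endothelial regulator, at least 3.23-fold. By its brightest probe set Fli1 gave 2632 in Snail-induced Flk1+, 147 in Snail-induced Flk1- and 16.8 in untreated Flk1- cells. Its other probe set gave 1586, 67.2 and 43.6, all above the floor, and did not reach 2-fold between the Flk1- arrays (log2 difference 0.53), so the arrays do not settle the size for Fli1. Mef2c gave 621, 82.7 and 2.55 in the same order, and 1 of its 5 probe sets did not reach 2-fold between the Flk1- arrays. Fli1, Mef2c and Sox18 were each highest in Flk1+ and lowest in untreated Flk1- cells, and the untreated value of each by these probe sets lay under the floor, whereas Tal1 (960, 67.5 and 61.2) and Lmo2 (1955, 78.8 and 98.5) stood alone in the Flk1+ array as Sox7 does.

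Of 14 genes reported as direct SoxF targets in endothelium, 13 were measured. Among these 7 were counted as higher and 0 lower in Snail-induced Flk1+ than in Snail-induced Flk1- cells, with a median log2 difference of 1.19, and 3 reached the floor only on the Flk1+ array. With the mean of probe sets 8 were counted as higher. The list shares Cdh5, Cldn5, Egfl7, Tek and Robo4 with the endothelial list and Notch1, Prox1 and Nr2f2 with the regulators. Beside Tek and Cdh5, Nrp1, a VEGF co-receptor gene, was 8.43-fold higher and gave 287 in Snail-induced Flk1+, 25.7 in Snail-induced Flk1- and 12.6 in untreated Flk1- cells. Rasip1, which is needed for vessels to form a lumen, was 5.75-fold higher, Egfl7, a secreted endothelial protein gene, 3.25-fold, Notch1 3.00-fold and Gja4, a connexin gene of arteries, 2.28-fold. The arterial genes Efnb2 and Dll4 went apart. Efnb2 was near equal at 540 in Snail-induced Flk1+, 563 in Snail-induced Flk1- and 454 in untreated Flk1- cells. Dll4 gave 45.2, 22.4 and 15.8 in that order, at least 1.77-fold higher in Flk1+ cells. The leukocyte adhesion gene Vcam1 was under the floor on every array. Against untreated Flk1- cells 10 of the 13 were counted as higher, with bounds under 2-fold for Robo4 and Dll4, and between induced and untreated Flk1- cells 0 were. In the first of these comparisons another, dim Cdh5 probe set gave a log2 difference of -0.23, and Nr2f2, not counted, reached 2-fold by other probe sets. By another, dim probe set each, Efnb2 (31.2 against 9.33) and Prox1 (16.5 against 43.4) passed 2-fold between the Flk1- arrays. Their log2 differences were 1.11 and -1.02.

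**Figure D3:**
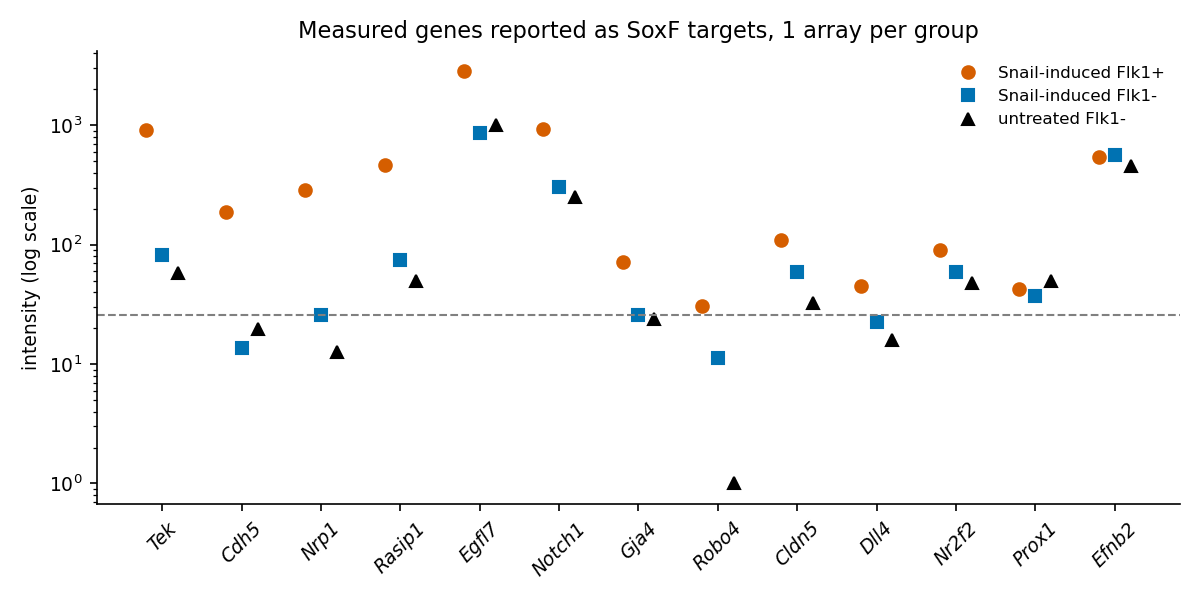
Intensity (log scale) of the 13 measured genes reported as SoxF targets, ordered by the log2 difference between Snail-induced Flk1+ and Flk1- cells; orange circles are Snail-induced Flk1+, blue squares Snail-induced Flk1- and black triangles untreated Flk1- cells, 1 array each, and the dashed line is the floor of 25.6. Tek, at the left, lies at 920 in Flk1+ cells against 82.0 and 58.1 in Flk1- cells, and Efnb2, at the right, lies close together on all 3 arrays.

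The promoters of these targets were read for the SOX core, ACAAT on either strand, in windows of 250 bases before to 50 after the start site from RefSeq on the GRCm38.p6 build. The table held 12 of the 14 targets, in 15 windows; Cdh5 and Vcam1 did not match, and neither did Sox7, Sox17 or Sox18. Tek, Robo4 and Gja4 held the core in 1 window each, 3 of the 15 target windows, beside 31.0% of all 32851 windows. The stretches of 100 bases with the core in capitals, written on the strand of the gene, are shown because they let the letters be compared between a target with a large difference (Tek) and targets with small ones. The Tek stretch is chr4:94739189-94739288 on the plus strand, bases 100 to 1 before the start. The Robo4 stretch is chr9:37401722-37401821 on the plus strand, bases 250 to 151 before it. The Gja4 stretch is chr4:127314074-127314173 on the minus strand, bases 134 to 35 before it.
Tek: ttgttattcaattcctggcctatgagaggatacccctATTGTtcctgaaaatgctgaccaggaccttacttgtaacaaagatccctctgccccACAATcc
Robo4: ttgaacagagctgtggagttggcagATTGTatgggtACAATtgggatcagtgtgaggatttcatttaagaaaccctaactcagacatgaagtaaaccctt
Gja4: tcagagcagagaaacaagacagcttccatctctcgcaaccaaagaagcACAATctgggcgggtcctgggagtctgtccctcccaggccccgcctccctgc

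Tek and Robo4 each held the core once on each strand, and Gja4 held it once. In Tek the upstream core shares 1 base with an ETS core, GGAA on the opposite strand. The ETS core GGAA was found in 14 of the 15 target windows and in 96.0% of all windows, the Snail E-box CAGGTG in 2 (Efnb2 and Egfl7) and 20.2%, and the GATA site AGATAA in 1 (Tek) and 11.2%, each on either strand. These matches describe letters only.

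SoxF proteins can dampen Wnt signalling, and DKK1 was present in all cultures. Of 14 Wnt/beta-catenin target genes, 9 were measured, and 2 were counted as higher and 1 lower in Snail-induced Flk1+ than in Snail-induced Flk1- cells, with a median log2 difference of 0.25. Axin2, the most general target, gave 90.6 in Snail-induced Flk1+, 102 in Snail-induced Flk1- and 89.98 in untreated Flk1- cells, and Lef1 gave 675, 515 and 504. Neither reached 2-fold. The receptor gene Lgr5 was 4.86-fold (by its brightest probe set; another gave 44.6 against 31.3) and the inhibitor gene Dkk1 3.55-fold higher, and the zinc finger gene Sp8 2.49-fold lower. Between induced and untreated Flk1- cells 0 of the 9 were counted, and against untreated Flk1- cells 3 were higher and 1 lower in Flk1+ cells. A dim probe set of the listed gene Nkd1 gave 12.3 in induced and 34.4 in untreated Flk1- cells, a log2 difference of -1.01.

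Blood genes were read as the other fate of Flk1+ cells. Of 14 hematopoietic genes, 12 were measured, and 4 were counted as higher and 1 lower in Snail-induced Flk1+ than in Snail-induced Flk1- cells, with a median log2 difference of 0.55. Of the 12, the globin genes Hba-x and Hbb-bh1 reached the floor only on the Flk1+ array. Lyl1, a relative of Tal1 that endothelium also expresses, was 6.43-fold higher, Zfpm1, a partner of GATA factors, 4.41-fold by its brightest probe set (another gave 33.0 against 12.7 and did not reach 2-fold), and the leukocyte gene Ptprc at least 2.37-fold. The embryonic globin gene Hba-x gave 38.1 in Snail-induced Flk1+, 13.9 in Snail-induced Flk1- and 17.5 in untreated Flk1- cells, a bound of at least 1.49-fold. Myb, a factor of definitive blood progenitors, was 2.74-fold lower. The red cell genes Klf1 and Hbb-y were under the floor on all 3 arrays, and Gata1 gave 44.5, 32.6 and 51.3. Between induced and untreated Flk1- cells, Ptprc was lower, at least 1.50-fold (a bound under 2-fold). By brightest probe sets it was the only one of the 12 counted there. The other Zfpm1 probe set gave 12.7 in induced and 39.4 in untreated Flk1- cells, a log2 difference of -1.14. Against untreated Flk1- cells 2 were higher and 1 lower in Flk1+ cells.

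**Figure D4:**
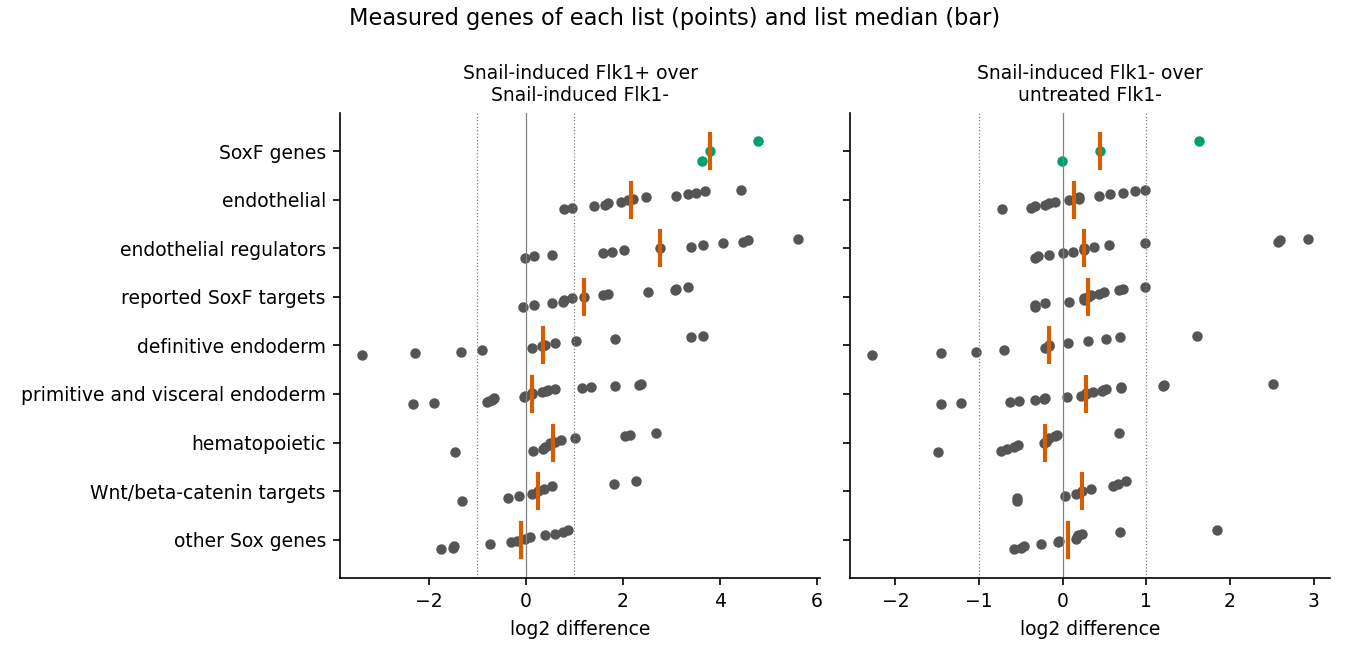
Log2 differences of the measured genes of each list (points) with the list median (orange bar), for Snail-induced Flk1+ over Flk1- cells (left) and Snail-induced over untreated Flk1- cells (right); dotted lines mark 2-fold. On the left the SoxF genes and the endothelial genes (median 2.16) all lie above 0, while both endoderm lists lie on both sides (medians 0.36 and 0.13).

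Genes with the pattern nearest to each SoxF gene were found by the Euclidean distance over the 2 log2 differences, Flk1+ over Flk1- in the induced culture and induced over untreated in Flk1- cells, across all measured genes. These distances rest on 3 arrays and describe no more than them, and those of genes under the floor on a Flk1- array rest on dim values. Nearest to Sox7 were Lhx1 (distance 0.08), Tal1 (0.13), the endothelial adhesion gene Esam (0.16), the tetraspanin gene Tspan8 (0.23) and the adhesion receptor gene Adgra2 (0.25). Nearest to Sox17 were Tspan8 (0.25), Icam2 (0.31), Tal1 (0.35), the scaffold gene Shank3 (0.39) and Ppp1r13b (0.40), which encodes a p53-binding protein. Tspan8 gave 410 in Snail-induced Flk1+, 22.0 in Snail-induced Flk1- and 17.9 in untreated Flk1- cells. Lhx1, Tspan8, Adgra2 and Icam2 were under the floor on both Flk1- arrays. The other Tspan8 probe sets gave log2 differences of 1.25, 1.19, 1.62 and 0.06 for Flk1+ over induced Flk1- cells, against 3.73. A second Lhx1 probe set gave 1.21, against 3.65. All of these were under the floor in induced Flk1- cells. Tspan8 and Lhx1 are thus near by their brightest probe set alone. The place of Sox17 itself rests on its brighter probe set, since the other gave -0.43 between the Flk1- arrays. Over genes at or above the floor on all 3 arrays, a choice made after seeing the data, the 5 nearest to Sox7 were Tal1, Esam, Hhex, Shank3 and Gadd45g (0.13 to 0.38), and those to Sox17 were Tal1, Shank3, Ppp1r13b, Tek and Gadd45g (0.35 to 0.47), so 2 and 3 of the first 5 stayed. Tal1 was among the 5 for both genes in each case.

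Nearest to Sox18 were a different 5 genes. These were Rhoj (distance 0.15), a small GTPase gene active in endothelium, the apelin receptor gene Aplnr (0.26), the hyaluronan link protein gene Hapln1 (0.51), the adrenomedullin receptor gene Calcrl (0.51) and Tnfaip2 (0.66). Rhoj gave 1204 in Snail-induced Flk1+ cells, 35.1 in Snail-induced Flk1- cells and 6.54 in untreated Flk1- cells. Aplnr gave 991, 30.9 and 5.56 in that order. Each of the 5 was under the floor in untreated Flk1- cells, and all but Hapln1 (22.1) were above it in Snail-induced Flk1- cells, so their size in that comparison rests on dim values as that of Sox18 does. Second probe sets of Aplnr (27.5 in induced and 22.1 in untreated Flk1- cells), Calcrl (56.4 and 58.7) and Tnfaip2 (78.5 and 78.6) did not reach 2-fold there. For Flk1+ over induced Flk1- cells these probe sets gave log2 differences of 1.23, 1.11 and 1.37, against 4.78 for Sox18. Aplnr, Calcrl and Tnfaip2 are thus near Sox18 by their brightest probe set alone. Other Hapln1 probe sets gave 2.97, 4.68 and 4.48 for Flk1+ over induced Flk1- cells, each under the floor in the latter. Between induced and untreated Flk1- cells they gave -0.16, 0.999 and 0.13 on values under the floor, against 1.63 for Sox18. How near Hapln1 is to Sox18 thus depends on the probe set.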

How the data were processed

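Biotin-labelled cRNA was prepared from 2 ug of column-purified RNA following Affymetrix's usual steps, per the labels' protocols. The authors deposited an intensity for each probe set on each array, which the values (0.5 to 18191) show to be linear; the sources used here do not state how probes were summarised and arrays scaled. Of 45037 probe sets, 34945 had 1 symbol in the platform annotation, 932 several and 9160 none, and symbols were brought up to date through Entrez IDs with RefSeq's GRCm38.p6 gene table. Columns were used as deposited (python 3.11.15, pandas 2.3.3). The offset of 9.53 is the 20th percentile of all values. The members, lists and alternatives were chosen with earlier results of these data known. The 8 lists come from textbook knowledge and leave out the SoxF genes; list genes without a single-symbol probe set were not analysed here. Named genes were the SoxF genes, Kdr and Snai1, every other measured Sox gene, up to 6 members per list and comparison with the largest difference plus up to 3 of the other direction, and the 5 genes nearest in pattern to each SoxF gene, clone names skipped; the text gives part of them, and Pou5f1, Dll4, Efnb2, Rbpj, Gata1, Axin2 and other list members near the middle or under the floor were named after their values were seen. The promoter search was planned for the SoxF genes and was made on their targets instead. Counting was tried on simulated arrays with differences planted in bright genes only, which does not cover dim values. The pattern step was tried only by giving Sox7 the differences of another gene, so finding that gene nearest was certain by design.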

Additional observations from a re-analysis of the deposited data

How the results depend on the processing

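No paired analysis was possible because there is 1 array per group, and no replicate could be left out. A log2 difference is said to have moved when it changed by over 1.5 times in fold, and a count when it changed by over 1.5 times or between 0 and another value. Direction of the SoxF genes in Flk1+ cells held against both Flk1- arrays under each alternative run. The mean over probe sets gave Sox7 2.32 (Flk1+ over induced Flk1-) and 2.07 (Flk1+ over untreated), and Sox17 3.43 in the second; these means include the dim probe sets. Without an offset Sox18 was 3.18 (induced over untreated Flk1-) and 8.34 (Flk1+ over untreated), and with the larger offset 0.95 and 5.26. The other Sox17 probe set, an alternative chosen after seeing the data, gave 3.05, -0.43 and 2.61 for Flk1+ over induced Flk1-, induced over untreated Flk1- and Flk1+ over untreated. Without suffixed probe sets Sox17 has no value, and with the floor at the 60th percentile, 80.5, Sox18 has none between the Flk1- arrays.

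Over all genes between the Flk1- arrays, 419 were higher and 288 lower, against 264 and 178 with the mean of probe sets, 629 and 537 without an offset, 262 and 137 with the larger offset, and 170 lower with the higher floor; centring each array gave 317 and 404, 44.0% of calls higher against 59.3%. At 3-fold the counts were 251 higher and 232 lower (Flk1+ over induced Flk1-), 116 and 33 (induced over untreated Flk1-) and 528 and 400 (Flk1+ over untreated). At 3-fold, targets higher in Flk1+ over untreated were 6. Primitive and visceral endoderm genes at 3-fold were 3 higher (Flk1+ over induced Flk1-), 1 higher and 0 lower (induced over untreated Flk1-) and 5 higher and 2 lower (Flk1+ over untreated). Definitive endoderm genes at 3-fold were 1 lower (induced over untreated Flk1-) and 2 lower (Flk1+ over untreated), and other Sox genes 1 lower (Flk1+ over induced Flk1-) and 0 higher (Flk1+ over untreated). Hematopoietic genes lower at 3-fold were 0 for Flk1+ over induced Flk1- and 0 for induced over untreated, and Wnt/beta-catenin targets lower were 0 for Flk1+ over either Flk1- array.

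With the mean of probe sets, 1 other Sox gene (Sox6) was higher in Flk1+ over induced Flk1- cells, and between the Flk1- arrays 0 other Sox genes were higher, 1 primitive and visceral endoderm gene was lower and 0 hematopoietic genes were lower. Without suffixed probe sets, definitive endoderm had 1 lower (Flk1+ over induced Flk1-) and 2 lower (Flk1+ over untreated), and hematopoietic genes 0 lower in both. With no floor, 1 other Sox gene (Sox14) was higher in Flk1+ over induced Flk1- cells and 2 Wnt/beta-catenin targets were lower in Flk1+ over untreated. With the higher floor, 2 hematopoietic genes were higher in Flk1+ over induced Flk1- cells, 1 other Sox gene was higher in Flk1+ over untreated, and between the Flk1- arrays 1 primitive and visceral endoderm gene and 0 hematopoietic genes were lower and 0 other Sox genes were higher. Without an offset, between the Flk1- arrays, 3 endothelial genes were higher and 1 lower, 5 regulators, 2 targets and 1 Wnt/beta-catenin target were higher, and 1 other Sox gene (Sox6) was higher in Flk1+ over induced Flk1- cells. With the larger offset, 1 primitive and visceral endoderm gene and 0 hematopoietic genes were lower between the Flk1- arrays, and in Flk1+ over untreated 0 Wnt/beta-catenin targets were lower and 1 other Sox gene was higher.

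Over genes at or above the floor on all 3 arrays, an alternative added after seeing the data, 2 and 3 of the 5 nearest genes of Sox7 and Sox17 were shared; by the largest absolute difference the nearest genes shared 5, 5 and 4 of 5 with those of Sox7, Sox17 and Sox18. The cause of these changes was not tested. Dim signals limit Sox18 on both Flk1- arrays, the second Sox7 probe set and the 7 endothelial markers that reached the floor only in Flk1+ cells.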

Other observations

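Other probe sets of the remaining Sox genes, picked after their values were seen, gave larger differences than the brightest ones for Sox6 and Sox4. The log2 difference of Snail-induced Flk1+ over Snail-induced Flk1- cells was 0.87 for the brightest Sox6 probe set and 1.16, 1.42 and 1.27 for its other 3. Those 3 read between 47.3 and 50.8 in Flk1+ cells, against 17.5, 11.7 and 15.1 in induced Flk1- cells, under the floor, so their differences are bounds short of 2-fold. Of the 8 Sox4 probe sets the brightest gave 0.61. The others gave 1.28, 1.26, 1.14, 0.995, 0.64, 0.08 and -0.09, and those with 0.08 and -0.09 were under the floor on all 3 arrays. Probe sets of 1 gene share an array and its RNA, so they are no replicates.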
